A study of Mus musculus with 16 samples.

Results

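The whole aortas of the series were compared between the genotype labels cre and wt. All 10 aorta libraries were taken, 5 labelled wt and 5 labelled cre, out of 16 libraries in all, the other 6 being sorted peritoneal B1b cells. Every mouse carried the ApoE-/- background, a strain that develops atherosclerosis, so the wild-type aortas are those of ApoE-/- mice with CD40 and the cre aortas those of ApoE-/- mice in which CD40 was deleted from B cells. Neither group received a treatment in the labels, which give no age, sex or Cre driver and do not say that each sample was a separate animal. P-values therefore measure the spread between these samples, which may be technical. Aortas were lysed whole, so each library is a mixture of every cell of the vessel and of whatever tissue stayed attached to it.

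CD40 is a receptor of the TNF receptor family on B cells, macrophages, dendritic cells and endothelium, and it signals through TRAF adaptors to NF-kB. The aortic wall holds an endothelial lining, a media of smooth muscle cells and an adventitia of fibroblasts, nerves and leukocytes, and lesions add foam cells. The aorta leaves the heart from the left ventricle, with the atria lying beside its root, and along its length it runs through brown and white fat, sympathetic ganglia and the mesothelial lining of the chest, next to skeletal muscle of the body wall. How much of these neighbours is removed varies with the dissection.

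Levels are given in CPM, the counts of a gene scaled to a common library total by way of TMM, a factor that corrects for composition. Fold changes, also called log2 differences, are log2, cre minus wild type, from edgeR's quasi-likelihood test. After 1 transcript was kept for each gene, wild-type libraries held 1979777 to 7141771 counts and cre libraries 1645926 to 7300894. The 2 libraries under 2000000 counts were wild-type replicate 5 and cre replicate 2. The aortic label held in every library, with 3859 to 10293 CPM for Acta2 and 1582 to 4981 CPM for Myh11, genes of the smooth muscle contractile apparatus. No library was short of these defining markers, and the genotypes overlapped in both.

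Cd40 itself was measured first. It stood at 12, 5.37, 7, 7.52 and 4.76 CPM in wild-type replicates 1 to 5 and at 6.40, 1.85, 4.74, 6.35 and 8.51 CPM in cre replicates 1 to 5. The groups overlapped, with a log2 difference of -0.35 (SE 0.36, edgeR adjusted p = 0.711). A deletion limited to B cells leaves CD40 of all other aortic cells in place, so this value does not check the labels. In bulk tissue, fewer cells of a type and less RNA per cell cannot be told apart, here or in any result that follows.

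Among 13364 genes tested, 2 rose and 0 fell in cre aortas (edgeR quasi-likelihood, adjusted p under 0.05, a share of 0.015%). At an unadjusted p under 0.05, 918 genes (6.87%) were higher and 765 (5.72%) lower. All 5 cre values lay above all 5 wild-type values for 220 genes (1.65%), and below them for 170 genes (1.27%). Fold changes were balanced over the genes, with 50.2% above 0 and a median of 0.0023. DESeq2 called 127 higher and 77 lower genes on the same counts, limma-voom called 1 and 0, and the range over the libraries left out in turn was 0 to 14 higher and 0 lower genes.

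Fgf12 rose. It encodes a fibroblast growth factor homologous factor, a protein that stays inside the cell and binds voltage-gated sodium channels in heart and nerve, and it lies at chr16:28157783-28753243 (GRCm38). Its levels were 1.44, 2.24, 1.11, 1.14 and 2.12 CPM in the wild-type aortas and 16.5, 10.5, 13.3, 10.8 and 7.27 CPM in the cre aortas. Every cre library exceeded every wild-type library, and no single library carried the difference. The log2 fold change was 2.91 (SE 0.35, edgeR adjusted p = 0.0105). These levels rest on few reads, 4 to 10 counts per wild-type library and 17 to 80 per cre library. Of its RefSeq transcripts, 3 held nearly the same counts in each library, so the counts do not tell these isoforms or their start sites apart. With the transcript of lowest total kept for each gene, Fgf12 was below the filter on low counts and was not tested. With limma-voom it missed (adjusted p = 0.0507), and so it did with edgeR when wild-type replicate 1 (adjusted p = 0.0678), wild-type replicate 3 (0.0757) or cre replicate 1 (0.0582) was left out. With the skeletal muscle score of each library as a covariate the log2 fold change was 2.55 (edgeR adjusted p = 0.233).

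**Figure D1:**
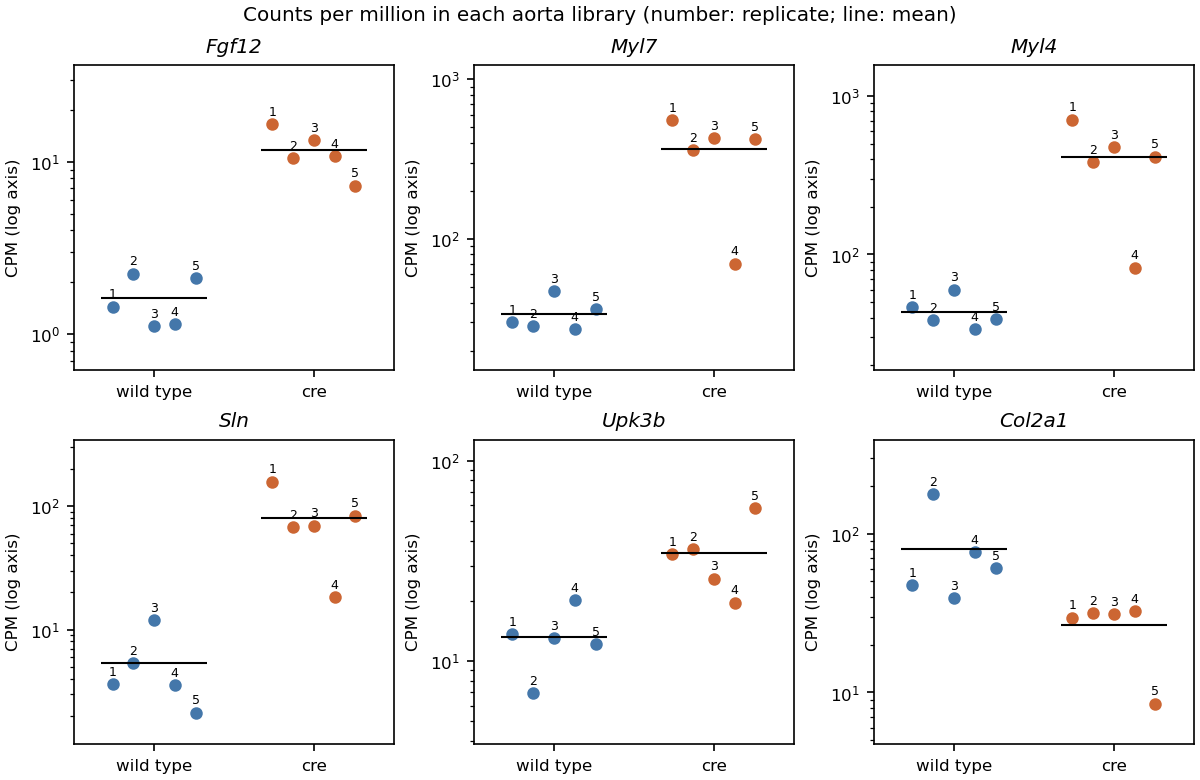
CPM of 6 genes in each aorta library on log axes, wild type on the left and cre on the right, with the replicate number above each point and a line at the group mean. Fgf12 separates all 5 cre libraries from all 5 wild-type libraries, a separation that the filter on low counts required of it. Myl7, Myl4 and Sln separate the genotypes too, with cre replicate 4 lowest of its group. Upk3b overlaps at wild-type replicate 4 and cre replicate 4, and Col2a1 is lower in each cre library.

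Another homologous factor of the family lay on the other side. Fgf13, expressed in neurons and heart, had 8.23 to 15.4 CPM in wild type and 1.85 to 7.83 CPM in cre, a log2 difference of -0.92 (edgeR adjusted p = 0.286), and its groups did not overlap. Of the 18 tested members of a list of these factors with sodium, potassium and calcium channel genes, 1 rose, 0 fell and 17 did not pass, with a median of -0.21 (-0.07 without cre replicate 4). Hcn2, a pacemaker channel gene, stood at 1.20 to 3.82 CPM in wild type and 4.93 to 13.1 CPM in cre (log2 fold change 1.74, edgeR adjusted p = 0.156).

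Genes of atrial heart muscle came next by p. The atria use their own set of myosin light chains and calcium pump regulators, which ventricles largely lack. Promoters of 3 of these genes are shown because their transcripts moved together over the libraries. Each is the RefSeq window (GRCm38.p6) from 250 bases before to 50 bases after a start that matches the counted transcript, read 5′ to 3′ on the gene's strand. Capitals mark matches to the CCAAT box (spelled by its name), the MCAT motif of TEAD factors (letters CATTCC), a form of the GATA motif (letters AGATAA), the TATA box (letters TATAAA), the CArG box and the MEF2 site, searched on both strands. The windows are chr11:5898733-5899032 on the minus strand for Myl7, chr11:104550413-104550712 on the plus strand for Myl4 and chr3:108364661-108364960 on the plus strand for Mybphl.
Myl7: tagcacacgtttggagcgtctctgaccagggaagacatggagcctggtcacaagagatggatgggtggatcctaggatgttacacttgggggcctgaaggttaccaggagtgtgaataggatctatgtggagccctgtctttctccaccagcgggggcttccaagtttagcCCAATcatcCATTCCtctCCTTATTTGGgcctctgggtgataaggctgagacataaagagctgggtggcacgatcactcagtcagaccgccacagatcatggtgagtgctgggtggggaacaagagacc
Myl4: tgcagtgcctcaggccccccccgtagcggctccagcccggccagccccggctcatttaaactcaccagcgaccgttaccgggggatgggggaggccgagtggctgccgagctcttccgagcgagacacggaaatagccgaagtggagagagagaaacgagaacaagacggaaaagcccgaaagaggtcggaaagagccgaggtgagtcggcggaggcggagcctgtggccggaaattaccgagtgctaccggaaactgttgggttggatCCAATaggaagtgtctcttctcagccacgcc
Mybphl: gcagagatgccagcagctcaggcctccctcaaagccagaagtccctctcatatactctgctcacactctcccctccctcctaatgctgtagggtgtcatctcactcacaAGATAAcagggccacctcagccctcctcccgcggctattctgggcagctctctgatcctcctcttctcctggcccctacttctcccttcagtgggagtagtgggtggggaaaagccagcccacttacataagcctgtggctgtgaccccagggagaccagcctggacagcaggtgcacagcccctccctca

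The Myl7 window held a CCAAT box, an MCAT motif and a CArG box, the last being the recognition sequence of serum response factor, and these 3 matches did not overlap. The Myl4 window held only a CCAAT box, and the Mybphl window only a GATA motif. Among 27025 genes with a promoter entry, 37.9% held a CCAAT box, 14.6% an MCAT motif, 11.4% a GATA motif and 1.57% a CArG box. Among the 35 tested genes of the 3 heart muscle lists with an entry, of 45, 16 held a CCAAT box, 9 an MCAT motif, 8 a GATA motif, 4 a CArG box and 4 a MEF2 site, against 0.566% of all entries for the last. A match describes these letters and is no evidence of binding.

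Myl7, the regulatory light chain of atrial myosin, stood at 30.2, 28.4, 47.2, 27.2 and 36.5 CPM in wild type and at 557, 359, 427, 70.1 and 423 CPM in cre. Its log2 fold change was 3.44 (SE 0.47, edgeR adjusted p = 0.0934). Every cre library was above every wild-type library, and cre replicate 4 was far below the other 4. Myl4, the essential light chain of atrial myosin, stood at 46.6, 38.5, 60.1, 33.6 and 39.1 CPM in wild type and at 711, 383, 475, 82.7 and 415 CPM in cre, with the same order of the cre libraries at both ends (log2 fold change 3.24, edgeR adjusted p = 0.0965). Sln, whose product sarcolipin restrains the calcium pump of the sarcoplasmic reticulum, stood at 3.60, 5.37, 11.9, 3.55 and 2.12 CPM in wild type and at 158, 67.8, 69.7, 18.2 and 83.8 CPM in cre (log2 fold change 3.80, edgeR adjusted p = 0.121). Mybphl, a myosin-binding protein gene of the atria, had a log2 fold change of 3.59 and the kinase gene Sbk3 one of 3.34, also without overlap (edgeR adjusted p = 0.121 and 0.122). Nppa, the gene of atrial natriuretic peptide, overlapped, with 10.8 to 184 CPM in wild type and 78.6 to 1864 CPM in cre (log2 fold change 3.33, edgeR adjusted p = 0.257).

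None of the atrial members passed the test on all 10 libraries. Of 12 tested, 9 were above 0, with a median log2 fold change of 2.46. On the higher side 8 had an unadjusted p under 0.05 and 5 did not overlap. On the lower side 1 had such a p and 1 did not overlap. Over all genes these shares were 6.87% and 1.65% on the higher side and 5.72% and 1.27% on the lower side. Dkk3, a secreted inhibitor related to the dickkopf family and named after its values were seen, went the other way, with 505 to 596 CPM in wild type and 401 to 483 CPM in cre, without overlap (log2 fold change -0.28, edgeR adjusted p = 0.365). Without cre replicate 4, Myl7, Myl4, Mybphl, Sln and Sbk3 all passed, Myl7 with a log2 difference of 3.71 (edgeR adjusted p = 1.31e-07). They also passed without cre replicates 1 and 4 together, with DESeq2, with all 16 libraries in the fit, and with the heart muscle score or the neuron and Schwann score as a covariate. The heart muscle score is the mean log2 CPM of the tested members of the heart muscle lists, these 5 genes among them. Passing with it is thus not a separate check. With limma-voom and quality weights Myl7, Myl4 and Sln passed. In every other setting run, which took in limma-voom, both other normalizations, the skeletal muscle and the adipocyte score, the length trend and each other library left out, none of the 5 passed, and the adjusted p went up to 0.437. Stard10, a lipid transfer protein gene outside the lists, took the same side, with 15.3 to 33.2 CPM in wild type and 30.3 to 116 CPM in cre (log2 fold change 1.79, edgeR adjusted p = 0.122).

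Ventricular markers were measured beside the atrial ones. The mean log2 CPM of the atrial list was 4.80, 5.33, 5.48, 4.92 and 4.67 in wild type and 7.62, 6.83, 7.23, 5.57 and 6.95 in cre, without overlap. The ventricular list had 5.80, 6.06, 6.05, 4.04 and 5.37 in wild type and 5.47, 4.06, 6.08, 3.91 and 6.41 in cre, with overlapping ranges and a median log2 fold change of 0.15 over 6 genes. Myl2, the ventricular regulatory light chain, ran from 83.7 to 641 CPM in wild type and from 70.9 to 1158 CPM in cre (log2 fold change 0.45, edgeR adjusted p = 0.852). Myh7, the slow myosin heavy chain, stood at -0.77 (edgeR adjusted p = 0.704), and with the heart muscle score as a covariate it passed on the lower side at -2.32 (edgeR adjusted p = 0.0039). The ventricular median was -0.31 without cre replicate 5 and -0.95 with the heart muscle score. That score is built from the ventricular, atrial and shared members themselves, Myh7 among them, so its fit takes out part of their own difference.

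Genes shared by atrium and ventricle lay between. Of 27 tested, 25 were above 0, with a median log2 fold change of 0.76. On the higher side 4 had an unadjusted p under 0.05, against 6.87% of all genes. None was free of overlap, against 1.65% of all genes on that side. Myh6, the alpha myosin heavy chain, had 170 to 921 CPM in wild type and 152 to 1649 CPM in cre (log2 fold change 0.78, edgeR adjusted p = 0.623), and Tnni3, cardiac troponin I, stood at 1.43 (edgeR adjusted p = 0.376). The lowest library of each group in this list was replicate 4, at a mean log2 CPM of 4.68 in wild type and 4.71 in cre against 5.77 to 6.62 and 6.32 to 7.43 in the others. Heart muscle RNA was thus present in wild-type aortas too. With the heart muscle score as a covariate the median of the shared list was -0.25 and that of the atrial list 1.44. Both lists are part of that score, so the fit takes out part of their own difference. Whether the atrial and ventricular differences differ from each other was not tested.

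**Figure D2:**
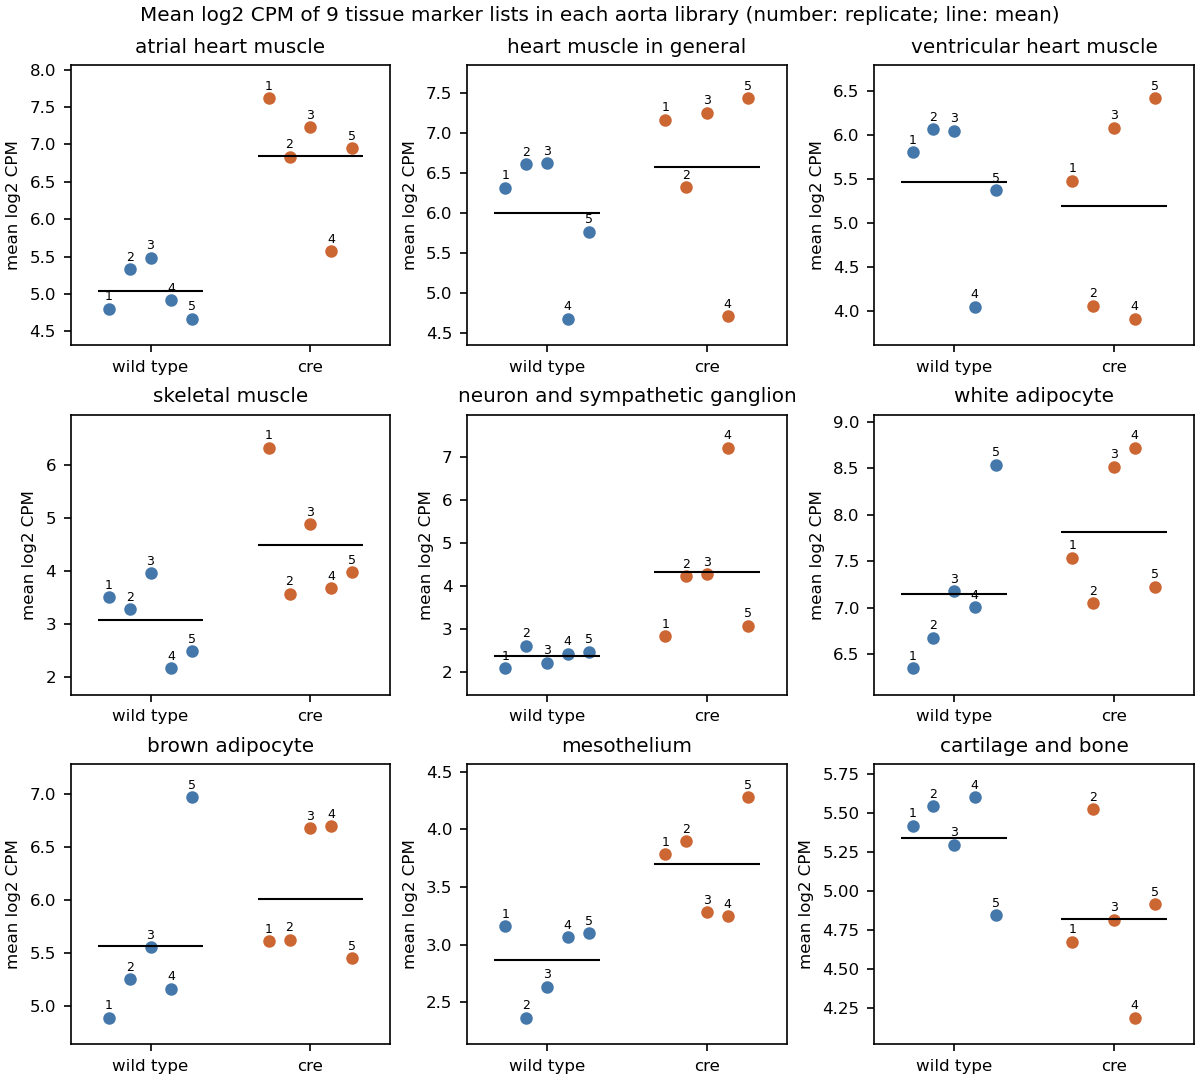
Mean log2 CPM of 9 tissue marker lists in each aorta library, wild type on the left and cre on the right, with the replicate number above each point and a line at the group mean. The atrial scores do not overlap (4.67 to 5.48 against 5.57 to 7.62), the ventricular scores do, skeletal muscle is highest in cre replicate 1 (6.32), the neuron and sympathetic ganglion list in cre replicate 4 (7.22), and both fat lists in wild-type replicate 5 and cre replicates 3 and 4.

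Skeletal muscle genes were highest in cre replicate 1, with a mean log2 CPM of 6.32 over the list, followed by cre replicate 3 at 4.88, and the other cre aortas had 3.57 to 3.98 against 2.17 to 3.95 in wild type. Tnnt3, fast skeletal troponin T, stood at 5.52, 2.01, 5.25, 0.993 and 2.64 CPM in wild type and at 156, 15.4, 38.9, 16.5 and 3.71 CPM in cre (log2 fold change 3.80, edgeR adjusted p = 0.243). Its groups overlapped only at cre replicate 5. Over 17 tested members the median was 1.58 and 16 were above 0. On the higher side 8 had an unadjusted p under 0.05, against 6.87% of all genes. Without cre replicate 1 the median was 0.80. Myl1, the skeletal essential light chain, was the list's gene without overlap, at 4.54 to 9.40 CPM in wild type and 14.8 to 41.6 CPM in cre (log2 fold change 1.75, edgeR adjusted p = 0.0965).

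Neuronal and sympathetic genes were highest in cre replicate 4, the library lowest in atrial genes of its group. Sympathetic ganglia make noradrenaline through tyrosine hydroxylase (Th), aromatic amino acid decarboxylase (Ddc) and dopamine beta-hydroxylase (Dbh). Ddc stood at 0.159 to 1.56 CPM in wild type and at 3.45, 16.6, 17.3, 271 and 3.87 CPM in cre (log2 fold change 6.23, SE 1.64, edgeR adjusted p = 0.238). Th and Dbh were below the filter for testing and are named here after their values were seen. They reached 345 and 655 CPM in cre replicate 4, 23.7 and 77.8 CPM in cre replicate 3, and at most 1.59 and 1.91 CPM in wild type.

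Other neuronal genes stood above the wild-type range in more than that library. Mapk10, a kinase of the JNK family found in neurons, had 1.28 to 5.59 CPM in wild type and 7.39, 22.8, 17.6, 57.4 and 9.75 CPM in cre (log2 fold change 2.91, edgeR adjusted p = 0.156). Rbfox1, a splicing factor of neurons and muscle, had 3.17 to 5.73 CPM and 8.66 to 30.5 CPM (1.74, edgeR adjusted p = 0.156). Of the 17 tested members of 28 listed, all 17 were above 0, with a median of 2.91. Of these, 16 had an unadjusted p under 0.05 and 4 did not overlap, against 6.87% and 1.65% of all genes on the higher side. The other 11, Th and Dbh among them, did not pass the filter on low counts, so the tested ones are not all members. A gene below the filter in every wild-type library, as Ddc was, could enter only through the cre libraries. The counts above 0, without overlap and at an unadjusted p under 0.05 are therefore partly fixed by the filter. Their excess over the shares of all genes is thus not a separate result. The same holds for such members of other lists. Without cre replicate 4 the median was 1.23. The list's mean log2 CPM was 2.10 to 2.63 in wild type and 2.84, 4.23, 4.28, 7.22 and 3.09 in cre, so each cre library lay above each wild-type one. This mean takes in only the 17 tested members, so its separation is partly fixed by the filter too.

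Schwann cells, which wrap the axons, followed in cre replicate 4 alone. The list's mean log2 CPM was 5.12 there, 3.44 to 3.86 in the other cre aortas and 3.35 to 4.05 in wild type, and the median log2 fold change was 0.37 over 16 genes and 0.02 without that library. Ngfr, the low-affinity nerve growth factor receptor, stood highest, at 306 CPM, in cre replicate 4, with 1.79 to 4.80 CPM in wild type (log2 fold change 4.49, edgeR adjusted p = 0.247). With the neuron and Schwann score as a covariate the median of the neuron list was 0.13 and that of the atrial list 3.43. The neuron list is part of that score, so the fit takes out most of its own difference. The atrial list is not, so these medians do not compare the lists.

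Fat markers were highest in 3 libraries, which came from both genotypes. Ucp1, the uncoupling protein of brown fat, stood at 114, 158, 401, 301 and 1059 CPM in wild type and at 273, 266, 1009, 1070 and 253 CPM in cre (log2 fold change 0.51, edgeR adjusted p = 0.797). Adipoq, the gene of adiponectin, had 55.2 to 305 CPM in wild type and 69.1 to 482 CPM in cre (0.88, edgeR adjusted p = 0.587). The same 3 libraries, wild-type replicate 5 and cre replicates 3 and 4, were high in both. White fat markers had a median of 0.67 over 19 genes, 18 of them above 0, and brown fat markers one of 0.36 over 15 genes, 12 of them above 0. In each list 3 genes had an unadjusted p under 0.05 on the higher side and none was free of overlap. Over all genes the shares on the higher side were 6.87% and 1.65%. These medians turned on single libraries: without wild-type replicate 5 they were 1.23 for white and 1.06 for brown fat, and without cre replicate 4 they were 0.36 and 0.12. Without both shallow libraries they were 1.42 and 1.12, and with the neuron and Schwann score as a covariate they were -0.14 and -0.40. In the fit without both shallow libraries, 9 of the 15 brown fat genes had an unadjusted p under 0.05. Over all genes that fit called 92, against 2 on all 10 libraries, so the 6.87% above is not its background. Cox7a1, a cytochrome oxidase subunit of heart, skeletal muscle and brown fat, stood at 1.16 (edgeR adjusted p = 0.198) and Trarg1, a regulator of glucose transporter traffic in fat, at 1.29 (0.319). The white fat list held 0.400% to 1.99% of the counts in wild type and 0.592% to 2.2% in cre.

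Mesothelial genes, those of the serous lining of the chest and pericardium, had log2 fold changes above 0 throughout. Lrrn4 had 3.80 to 6.39 CPM in wild type and 7.83 to 21.8 CPM in cre, without overlap (log2 fold change 1.55, edgeR adjusted p = 0.156). Upk3b, a mesothelial uroplakin, had 13.7, 6.94, 13, 20.1 and 12.2 CPM in wild type and 34.2, 36.4, 25.9, 19.6 and 58.2 CPM in cre, with overlap at replicate 4 of both (1.38, edgeR adjusted p = 0.156). Msln, the gene of mesothelin, stood at 1.0 (edgeR adjusted p = 0.222). All 11 members were above 0, where 50.2% of all genes were, with a median of 0.88. Of these, 7 had an unadjusted p under 0.05 and 2 did not overlap, against 6.87% and 1.65% of all genes on the higher side. Both Lrrn4 and Upk3b passed with the neuron and Schwann score as a covariate.

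Cartilage genes took the other side. Col2a1, the type II collagen of cartilage, stood at 47.5, 178, 39.3, 76.8 and 60.8 CPM in wild type and at 29.6, 31.4, 31.1, 32.6 and 8.51 CPM in cre, without overlap (log2 fold change -1.62, SE 0.48, edgeR adjusted p = 0.254). Acan, the gene of aggrecan, stood at -0.62 (edgeR adjusted p = 0.280). Of 13 tested cartilage and bone genes, 11 were below 0, with a median of -0.62 (-0.40 without wild-type replicate 2). On the lower side 3 had an unadjusted p under 0.05, against 5.72% of all genes. Cartilage-like cells occur in the aortic root and in lesions, and these data do not tell those sources apart.

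Blood and lymphoid tissue differed by library. B cell markers were highest in cre replicate 2, with Cd79a at 30.2 CPM, Ms4a1 at 17.3 CPM and Cd79b at 21.6 CPM, against 1.56 to 4.56, 1.42 to 10.6 and 4.82 to 10.6 CPM in the other 9 aortas. Cd79a and Cd79b encode the signalling chains of the B cell receptor and Ms4a1 encodes CD20. The B cell list had a median of 0.14 over 11 genes, and a median of -0.35 without cre replicate 2. T and NK cell genes had a median of -0.13 over 11, and of 0.29 without wild-type replicate 1. Ptprc, the CD45 of all leukocytes, had 129 to 190 CPM in wild type and 77.8 to 150 CPM in cre (log2 fold change -0.48, edgeR adjusted p = 0.320). Red blood cell genes were led by wild-type replicate 5, with a mean log2 CPM of 9.48 against 5.53 to 7.51 in the other wild-type and 5.32 to 8.53 in the cre aortas. Epithelium of airway and oesophagus, and tissue of kidney, adrenal and liver, were nearly absent, with 1 of 15 listed genes tested in each case, Cdh1 and Star. Cdh1, the gene of E-cadherin, was low throughout, at 5.28 to 6.24 CPM in wild type and 1.23 to 3.56 CPM in cre (log2 fold change -1.17, edgeR adjusted p = 0.243).

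Genes of oxidative phosphorylation, the respiratory chain and ATP synthase of mitochondria encoded in the nucleus, had log2 fold changes above 0 with 1 exception. Of 71 tested, 70 had a log2 fold change above 0, the exception being Cycs, and the median was 0.61. None passed on all 10 libraries, 56 had an unadjusted p under 0.05 on the higher side and 15 did not overlap. Over all genes these shares were 6.87% and 1.65%. Ndufs6, a complex I subunit, stood at 40.6, 33.6, 46.1, 34.1 and 45 CPM in wild type and at 66.3, 54.9, 98.7, 68 and 63.4 CPM in cre, a log2 difference of 0.83 (SE 0.17, edgeR adjusted p = 0.156). Every cre value lay above every wild-type value. Ndufa3, another complex I subunit, stood at 0.75 without overlap, and Atp5j2, an ATP synthase subunit, at 0.89 with overlap (edgeR adjusted p = 0.156 and 0.122). Leaving out both shallow libraries, 38 of the members passed, and DESeq2 called 25 on all 10. Over all genes the first setting called 92, 79 of them higher, and DESeq2 called 204, 127 of them higher.

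The promoter of Ndufs6 is shown for comparison with the heart genes, and was chosen after the motif search. Its window, chr13:73328433-73328732 on the minus strand (RefSeq, GRCm38.p6), held a CCAAT on the opposite strand and an NRF1 site (GCGC, any 2 bases and GCGC), which nuclear respiratory factor 1 is known to bind, both in capitals.
Ndufs6: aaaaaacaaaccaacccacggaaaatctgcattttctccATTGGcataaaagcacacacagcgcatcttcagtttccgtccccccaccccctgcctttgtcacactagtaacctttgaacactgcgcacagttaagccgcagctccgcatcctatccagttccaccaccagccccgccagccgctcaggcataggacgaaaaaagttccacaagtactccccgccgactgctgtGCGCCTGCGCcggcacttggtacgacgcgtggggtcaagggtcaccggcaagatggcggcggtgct

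Of 59 oxidative phosphorylation genes with a promoter entry, 16 (27.1%) held an NRF1 site on either strand, against 6.43% of all entries. None of the 35 heart muscle genes and none of 21 collagen and matrix genes with an entry held it.

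**Figure D3:**
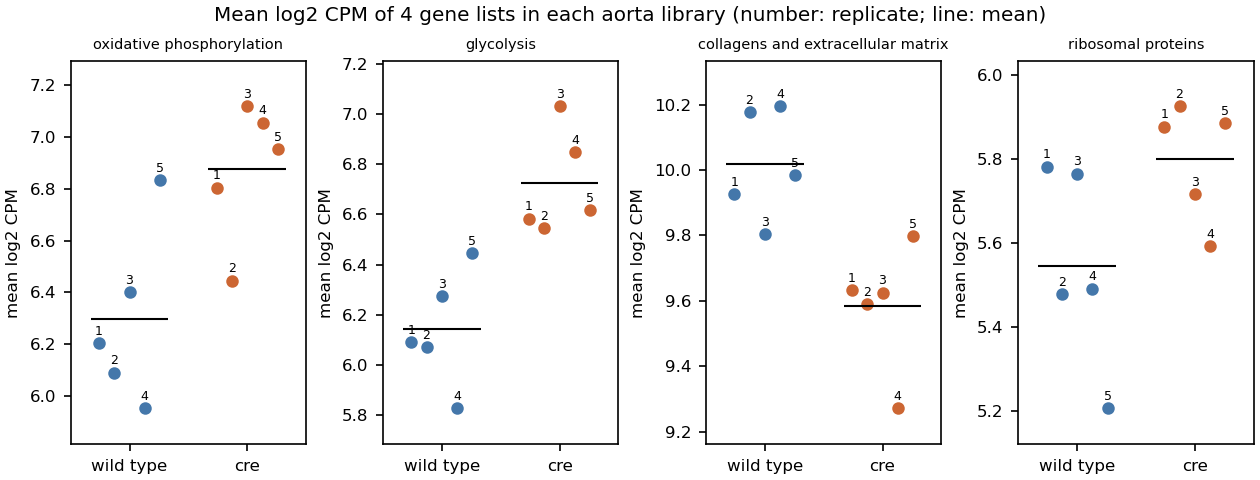
Mean log2 CPM of 4 gene lists in each aorta library, wild type on the left and cre on the right, with the replicate number above each point and a line at the group mean. Oxidative phosphorylation overlaps through wild-type replicate 5 (6.83) and cre replicate 2 (6.45), glycolysis and the collagens separate the genotypes, and ribosomal proteins overlap.

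The list's mean log2 CPM was 6.20, 6.09, 6.40, 5.95 and 6.83 in wild type and 6.80, 6.45, 7.12, 7.06 and 6.95 in cre. Among wild types the high library, replicate 5, was the one rich in fat, and cre replicates 3 and 4 were also rich in fat. Heart scores were high in cre replicates 1, 3 and 5. Heart muscle and brown fat are dense in mitochondria, and their part in the difference was not tested beyond fits with each score as a covariate. The median was 0.37 to 0.82 over the alternatives other than leaving out a single library, and it stayed above 0 in all of them.

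Related pathways lay on the same side. Of 17 glycolytic genes all were above 0, with a median of 0.48, 10 with an unadjusted p under 0.05 and 2 without overlap. Over all genes 6.87% had such a p on the higher side and 1.65% did not overlap there. Tpi1, triosephosphate isomerase, had 160 to 188 CPM in wild type and 220 to 255 CPM in cre, without overlap (log2 fold change 0.49, SE 0.11, edgeR adjusted p = 0.156). Aldoc, the aldolase of brain, stood at 3.26 with 53.8 CPM in cre replicate 4 and at most 7.35 CPM elsewhere (edgeR adjusted p = 0.238). Genes of the citrate cycle and fatty acid oxidation had a median of 0.49, with 33 of 34 above 0 and 4 with an unadjusted p under 0.05. That median was 0.83 without wild-type replicate 5, 0.33 without cre replicate 3, 0.95 without both shallow libraries and 0.06 with the neuron and Schwann score. Its member Mdh1, cytosolic malate dehydrogenase, stood at 0.69 (edgeR adjusted p = 0.217). Ribosomal protein genes had a median of 0.25, with 44 of 52 above 0 and 12 with an unadjusted p under 0.05. Rps14 had 241 to 355 CPM in wild type and 332 to 462 CPM in cre (log2 fold change 0.52, edgeR adjusted p = 0.225).

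Collagen and extracellular matrix genes were all below 0. The 28 tested members had a median log2 fold change of -0.42, 18 had an unadjusted p under 0.05 and 3 did not overlap, and none passed. On the lower side 5.72% of all genes had such a p and 1.27% did not overlap. Col3a1, the fibrillar collagen of distensible tissue, stood at 9765, 11136, 7786, 11346 and 8493 CPM in wild type and at 5915, 7423, 4720, 4901 and 8876 CPM in cre (log2 fold change -0.61, SE 0.20, edgeR adjusted p = 0.263). The groups overlapped through cre replicate 5, which exceeded wild-type replicates 3 and 5. Col1a1 and Col1a2, the chains of type I collagen, stood at -0.56 and -0.50 (edgeR adjusted p = 0.283 and 0.284).

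Members without overlap were Ltbp2, Col5a2 and Col4a2. Ltbp2, a microfibril-associated protein related to the TGF-beta binding proteins, had 517 to 899 CPM in wild type and 264 to 474 CPM in cre (log2 fold change -0.72, edgeR adjusted p = 0.198). Col5a2, which sets the diameter of collagen fibrils, had 966 to 1438 CPM and 589 to 891 CPM (-0.61, edgeR adjusted p = 0.223). The 28 genes together held 4.93% to 6.43% of the counts of a wild-type library and 3.16% to 4.89% of a cre library, so the ranges of this sum did not overlap either.

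The other lists of the vessel wall had medians nearer 0 on all 10 libraries. Adventitial fibroblast genes, which share collagens with the list above, had a median of -0.04 over 18 genes, 13 of them below 0 and 6 with an unadjusted p under 0.05 on the lower side, and a median of -0.25 without cre replicate 5 and 0.04 without cre replicate 4. Smooth muscle genes had a median of -0.15 over 20, with Acta2 at -0.18 and Myh11 at -0.46 (edgeR adjusted p = 0.785 and 0.518). Without cre replicate 3 the list's median was -0.44, with Acta2 at -0.46 and Myh11 at -0.79, and without cre replicate 5 it was -0.09. Npnt, the gene of nephronectin, a ligand of integrins, stood at -0.62 (edgeR adjusted p = 0.223). Endothelial genes had a median of 0.16 over 20 (0.05 without cre replicate 5), and Cldn5, a claudin of endothelial tight junctions, had 28.4 to 41.7 CPM in wild type and 44.1 to 64 CPM in cre, without overlap (log2 fold change 0.49, edgeR adjusted p = 0.251). Esam, an endothelial adhesion molecule, stood at 0.46 (edgeR adjusted p = 0.229). Of the matrix proteases, Mmp2, a gelatinase, stood at -0.54 (edgeR adjusted p = 0.302), and the list had a median of -0.06 over 20. Enpp1, whose product makes the calcification inhibitor pyrophosphate, had 79.4 to 115 CPM in wild type and 56.5 to 75.9 CPM in cre, without overlap (-0.59, edgeR adjusted p = 0.174).

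Lists of inflammation had medians near 0. Macrophage and foam cell markers had a median of 0.18 over 24 (0.02 without wild-type replicate 5) and no member with an unadjusted p under 0.05, and inflammatory cytokines and chemokines had one of -0.003 over 25, also without such a member. Interferon response genes stood at -0.15 over 26 and MHC class II presentation at -0.13 over 14, and without wild-type replicate 1 these medians were 0.08 and 0.02. Genes of CD40 signalling and NF-kB had a median of -0.19 over 25 (-0.11 without cre replicate 4), with 19 below 0. On the lower side 3 had an unadjusted p under 0.05, against 5.72% of all genes. In this list Traf3, an adaptor that holds back the alternative NF-kB pathway, had 49 to 64.5 CPM in wild type and 36.5 to 48.1 CPM in cre, without overlap (log2 fold change -0.37, edgeR adjusted p = 0.310). Birc2, a ubiquitin ligase of the same complex, stood at -0.49 (edgeR adjusted p = 0.280). Apoe, the gene missing from the strain, was still counted at 27.3 to 43.7 CPM in wild type and 22.6 to 41.9 CPM in cre (-0.12, edgeR adjusted p = 0.819), and Lrp1, a receptor for apolipoprotein E, stood at -0.48 (edgeR adjusted p = 0.336).

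Cell cycle genes lay below 0 for 22 of 29, where 6656 of all 13364 genes did, with a median of -0.31 (-0.18 without cre replicate 3). On the lower side 5 had an unadjusted p under 0.05 and 2 did not overlap, against 5.72% and 1.27% of all genes. Cenpf, a kinetochore protein, had 11.5 to 15 CPM in wild type and 4.98 to 9.59 CPM in cre, and Ncapg2, a condensin subunit, had 20.8 to 27.4 CPM and 8.63 to 15.3 CPM. Neither pair of groups overlapped, and log2 fold changes were -0.84 and -0.88 (edgeR adjusted p = 0.217 and 0.156). Of the clock genes, Nr1d2, a repressor of the clock, stood at -0.76 without overlap and Per2 at -0.54 (edgeR adjusted p = 0.172 and 0.243), while the list's median was 0.04 over 18.

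The lower genes of smallest p all missed the threshold. Zmym6, a zinc finger gene, stood at 59.3, 60.6, 61.2, 47 and 55 CPM in wild type and at 36, 35.1, 31.3, 35.5 and 30.9 CPM in cre (log2 fold change -0.75, SE 0.13, edgeR adjusted p = 0.100). The 5 cre values were close to each other and all below the wild-type values. Trp53inp1, a p53-induced gene, had 71.1 to 157 CPM in wild type and 45.5 to 60.9 CPM in cre (-1.0), and the list of p53 targets had a median of -0.03 over 20. Kcnj15, a potassium channel, stood at -0.99, Fam76b at -0.98, Pi15 at -0.84, Napepld, a lipase that makes acylethanolamides, at -0.80, Abi3bp, a matrix protein, at -0.74, Tsc22d2 at -0.65 and Smg1, a kinase of nonsense-mediated decay, at -0.64 (edgeR adjusted p from 0.122 to 0.156 for these 8 genes). Kcnj15 and Pi15 overlapped and the other 6 did not. On the higher side Igfbp6, a binding protein of insulin-like growth factor 2, had 47.4 to 74.9 CPM in wild type and 92.1 to 114 CPM in cre, and Mgst3, a microsomal glutathione transferase, had 17.9 to 22.1 CPM and 25.9 to 45.8 CPM. Their log2 fold changes were 0.78 and 0.93, without overlap (edgeR adjusted p = 0.121 for each).

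Xist, the RNA that coats the inactive X chromosome, was present in all 10 aortas. It stood at 977, 1092, 948, 928 and 967 CPM in wild type and at 695, 715, 444, 620 and 593 CPM in cre, without overlap (log2 fold change -0.68, SE 0.15, edgeR adjusted p = 0.156). With each library's transcript length trend taken out, it was -0.40. The Y-linked genes Ddx3y, Kdm5d and Eif2s3y had 0 counts in all 10, and Uty had 0.142 CPM in wild-type replicate 4 and 0 in the rest, so these genes did not separate the groups.

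Fold changes went with transcript length. A GENCODE length was found for 98.1% of the genes tested. Split into 5 groups of equal size from the shortest to the longest, with median lengths of 1238, 2120, 2987, 4116 and 6426 nucleotides, the median log2 fold change was 0.20, 0.07, -0.003, -0.07 and -0.16, and 74.9%, 60.3%, 49.5%, 39.5% and 27.3% of the genes were above 0. The median of the longest group minus that of the shortest, each as a deviation from the gene's mean, was 0.003, 0.34, -0.17, 0.23 and 0.46 in wild-type replicates 1 to 5 and -0.27, -0.18, -0.22, -0.11 and -0.19 in cre replicates 1 to 5. All 5 cre libraries and wild-type replicate 3 leaned to short transcripts, and wild-type replicates 2, 4 and 5 leaned to long ones.

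The lists differ in this property. Median transcript lengths were 763 nucleotides for oxidative phosphorylation, 835 for ribosomal proteins, 1825 for glycolysis, 5829 for collagens and matrix, 2460 for atrial heart muscle and 2073 for the neuron list, against 2986 for all genes. With each library's length trend taken out, a setting chosen after seeing the data, the medians were 0.37 for oxidative phosphorylation, 0.41 for glycolysis, -0.01 for ribosomal proteins, -0.30 for collagens and matrix and 2.37 for atrial genes. Single genes moved too: Ndufs6 to 0.48, Ndufa3 to 0.38, Rps14 to 0.19, Cox7a1 to 0.76, Myl2 to 0.17, Smg1 to -0.37, Tsc22d2 to -0.42, Lrp1 to -0.18, Traf3 to -0.19 and Myh11 to -0.28. The same 2 genes in number rose, and Fgf12 had a log2 difference of 2.63 (edgeR adjusted p = 0.0213).

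**Figure D4:**
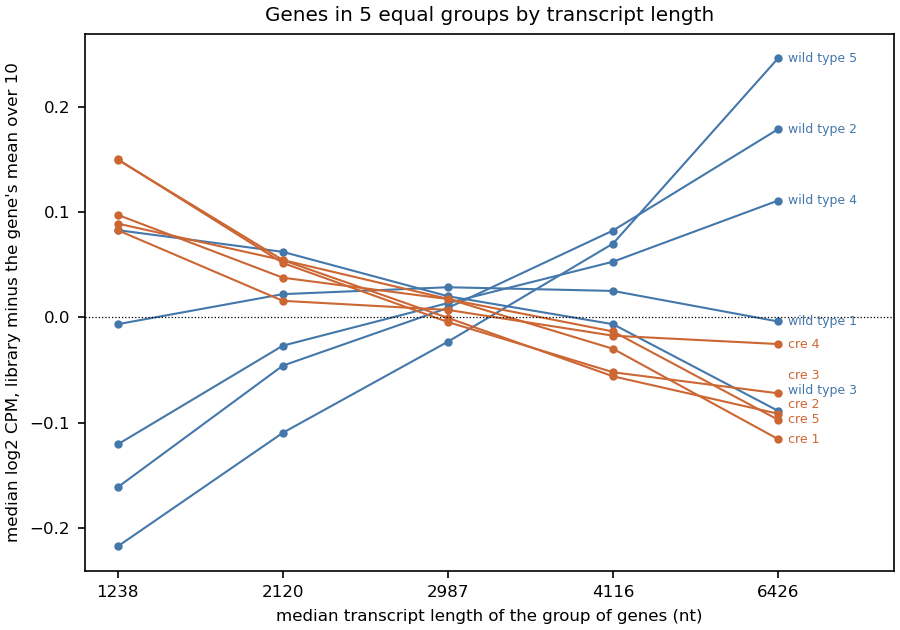
Median deviation of log2 CPM from each gene's mean over 10 aortas, for genes in 5 equal groups by transcript length (horizontal axis, equally spaced and labelled with the median length in nucleotides), with 1 line per library, wild type in blue and cre in orange. Cre lines fall from left to right by 0.11 to 0.27, and wild-type lines run from a fall of 0.17 to a rise of 0.46.

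**Figure D5:**
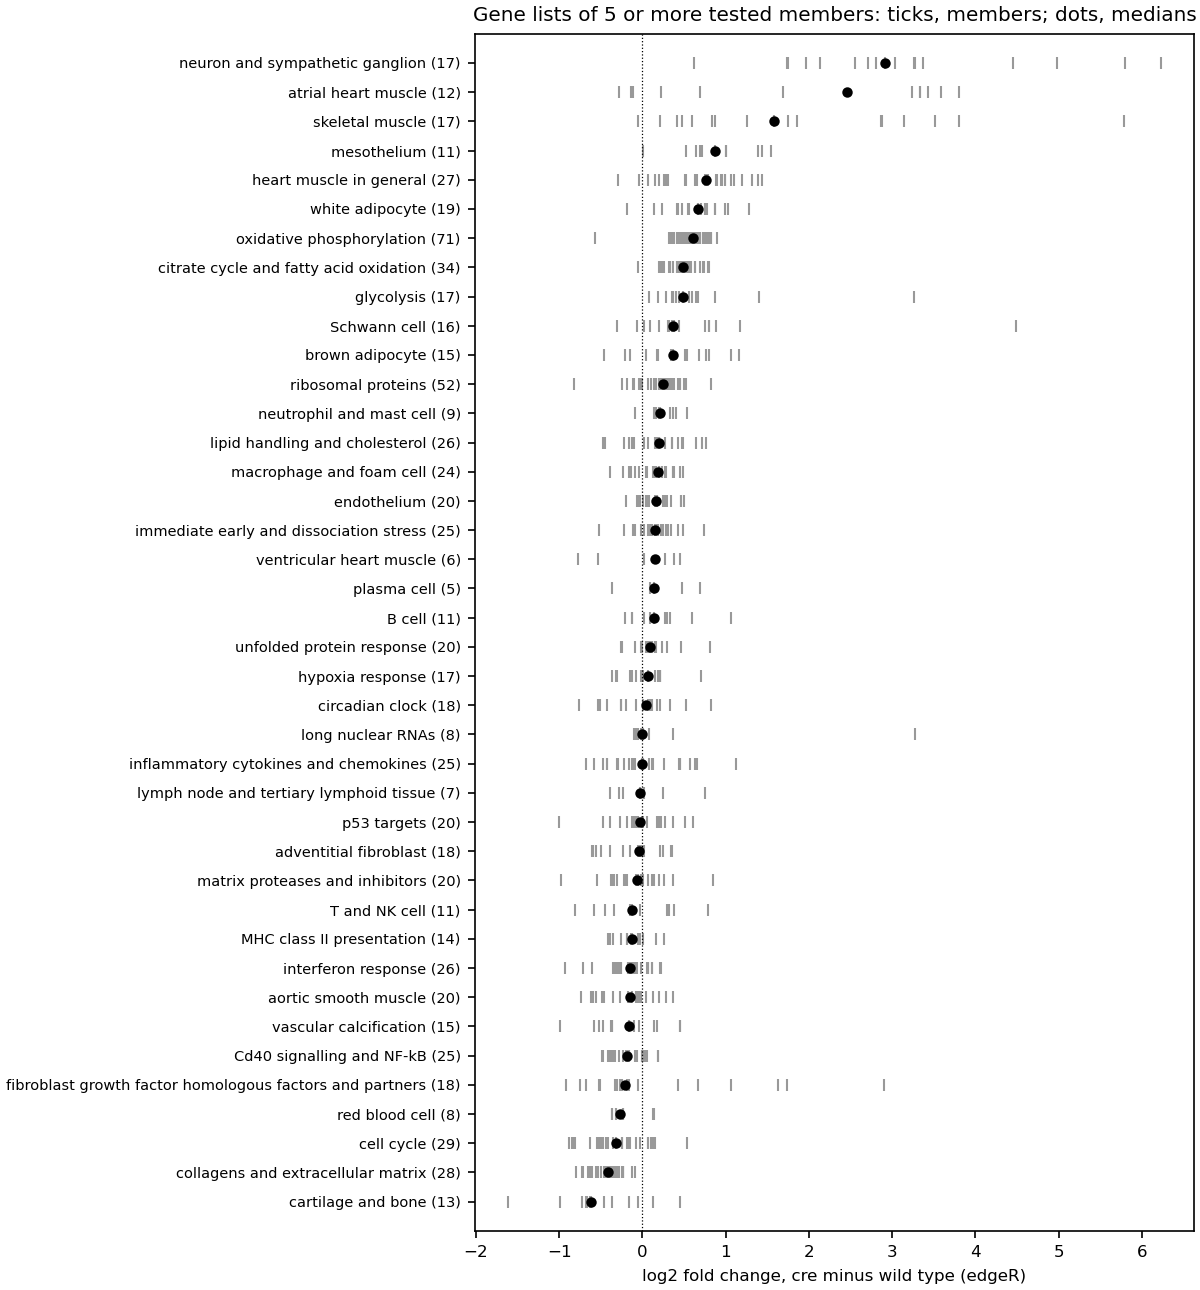
Log2 fold changes (cre minus wild type, edgeR) of the tested members of each gene list with at least 5, as ticks, and the list's median as a dot, with the number of members in brackets and the lists ordered by median. Medians run from -0.62 for cartilage and bone to 2.91 for the neuron and sympathetic ganglion list, with a dotted line at 0.

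Genes of neighbouring tissue and of red blood cells were frequent among those that varied most between aortas of the same genotype. The 50 with the highest dispersion were taken among 12152 genes with a mean of at least 5 CPM. Of these 50, 25 (50%) belonged to the fat, heart muscle, skeletal muscle, nerve or red blood cell lists. Those lists held 1.09% of the 12152. Among the 100 most variable genes the share was 34%. The median biological coefficient of variation of the 50, the spread between libraries of a genotype beyond counting noise, was 1.01, against 0.223 over all. Among the most variable genes were Myh4, Syt1, Slc6a2, Chga, Snap25, Prph, Mylpf and Nppb. These are genes of fast muscle, synapse, noradrenaline uptake, secretory granules and stretched heart muscle.

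The difference of the genotype effects between aortas and B1b cells was tested over all 16 libraries. Of 15091 genes tested, 3 passed, 2 with the higher and 1 with the lower effect in aortas, and 1678 had an unadjusted p under 0.05 (edgeR interaction test). Fgf12 was not among them, with a difference of 3.42 (SE 0.65, edgeR adjusted p = 0.140). Raph1, an adaptor of the actin cytoskeleton, had 122 to 148 CPM in wild-type and 77.8 to 108 CPM in cre aortas, and its genotype effect in aortas minus that in B1b cells was -1.30 on the log2 scale (edgeR adjusted p = 0.0178). Rgl1, a regulator of the small GTPase Ral, had 53.4 to 65.3 CPM and 61 to 85.2 CPM, and the same difference was 1.52 (edgeR adjusted p = 0.0178). In aortas alone the log2 differences were -0.46 for Raph1 and 0.31 for Rgl1, and neither passed (edgeR adjusted p = 0.217 and 0.351). In B1b cells they were larger in size, at 0.84 for Raph1 and -1.21 for Rgl1.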

How the data were processed

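RNA was sequenced from 10 whole aortas, 5 per genotype label, and from 6 B1b cell samples used only in the test of differing genotype effects. Per the labels' protocols, aortas were snap frozen, lysed in TRIzol, and poly(A) libraries were prepared (KAPA mRNA Hyperprep). The submitters' processing notes list STAR 2.5.2b, CASAVA 1.8.2 and mm10. Counter, annotation and strand setting: not given in the sources used here, so reads of overlapping or near-identical genes cannot be told apart. The deposited table holds raw counts per RefSeq transcript, which the authors did not normalize.

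Of 35745 transcripts, 117 had no gene name. They held 0.345% to 2.50% of the counts of an aorta and stayed in library sizes. For each gene the transcript of highest total count over all samples was kept, which left 24562 entries, 24445 of them named. Groups were taken from the genotype labels, and replicates were numbered in sample order. Replicate pairs differed far beyond counting noise.

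Genes were tested with edgeR 4.0.16 in R 4.3.3 (TMM, filterByExpr, robust quasi-likelihood F test), and p-values were adjusted over all 13364 genes by the Benjamini-Hochberg method with a threshold of 0.05. Log2 CPM used a prior count of 2. The interaction test used all 16 libraries. DESeq2 1.42.0, limma 3.58.1, other normalizations, filters, transcripts, covariates and left-out libraries were alternatives, and the code was tested on simulated counts. Depth limits the precision of low genes, and counting error alone is larger than the other errors only there.

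Gene names and coordinates are those of GRCm38, and promoter sequences are RefSeq's. List members, lists and tests were chosen with earlier results of these data known, so lists are described by counts and medians beside those of all genes. Named genes were Cd40, Apoe and Ptprc, the genes past the threshold, the 12 higher and 12 lower genes of smallest p with a mean of at least 5 CPM in a group (less predicted genes), the first 4 tested members and the 2 of smallest p of each list, and, by level only, the most abundant and most variable genes. Cycs, Col4a2, Dkk3, Th and Dbh, Uty, Ddx3y, Kdm5d and Eif2s3y were named after their values were seen. Some genes that this rule takes in are not reported here and stay only in the counts of genes.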

Additional observations from a re-analysis of the deposited data

Results flagged for a closer look

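In each group of 5 aortas the most extreme library was compared with the rest by Dixon's criterion (critical value 0.71), for the total counts, the mean log2 CPM of each list and the log2 CPM of each gene whose fold change is printed. Over 238 such groups chance alone flags about 5%, which is more than the 10 that were found. Cre replicate 2 stood apart in the B cell list at 5.09, against 3.38 to 3.56 in the other cre aortas. Cre replicate 4 stood apart on the high side in the Schwann cell list at 5.12, against 3.44 to 3.86, and in Rbfox1 at 4.95, against 3.18 to 3.64. The same library was low in Myl7 at 6.14, against 8.49 to 9.12, and in Myl4 at 6.38, against 8.58 to 9.48. Wild-type replicate 5 stood apart in citrate cycle and fatty acid oxidation genes at 8.02, against 6.62 to 6.95, in hypoxia response genes at 5.38, against 5.09 to 5.15, and on the low side in lymph node and tertiary lymphoid tissue genes at 2.15, against 2.43 to 2.54. Wild-type replicate 4 was low in Myh6 at 7.42, against 9.21 to 9.85, and cre replicate 5 was low in Col2a1 at 3.16, against 4.91 to 5.04.

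The genotype effect of 2 named genes differed between aortas and B1b cells by the interaction test, Raph1 by -1.30 and Rgl1 by 1.52 on the log2 scale (edgeR adjusted p = 0.0178 for each). For both, the effect was larger in size in B1b cells (0.84 and -1.21) than in aortas (-0.46 and 0.31).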

How the results depend on the processing

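No paired analysis was possible because replicate numbers follow sample order and the labels tie no aorta to another. The count of 2 higher genes became 127 with DESeq2, 1 with limma-voom, 9 with limma-voom and quality weights, 1 with the transcript of lowest total, 36 with all 16 libraries in the fit, 66, 18 and 0 with the heart, the neuron and Schwann, and the skeletal muscle score as covariates, 79 without both libraries under 2000000 counts, 10 without cre replicates 1 and 4 together (added after seeing the data), and 0 to 14 over the libraries left out in turn, 14 without cre replicate 4 and 0 when cre replicate 1 or either of wild-type replicates 1 and 3 was dropped. The count of 0 lower genes became 77 with DESeq2, 11 with all 16 libraries, 9 with the heart and 2 with the adipocyte score, and 13 without both shallow libraries. The count of 3 differing effects became 173 with DESeq2 and 1 to 7 over the libraries left out, with 7 without cre aorta replicate 4, 6 without wild-type aorta replicate 3, and 1 without B1b wild-type replicate 1 or 3 or any B1b cre replicate.

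Of 74 genes followed, 7 changed sign in at least 1 setting, none of them past the threshold there. Apoe stood at 0.14 with the neuron and Schwann score and at 0.012 without wild-type replicate 3, Myh6 at -0.55 with the heart score, and Myl2 at -0.085 with limma-voom, -1.11 with the heart score, -0.28 with the skeletal muscle score and from -0.21 (without cre replicate 5) to 0.80 over single libraries left out. With the neuron and Schwann score Myh7 stood at 0.36, Phox2a at -0.34, Adipoq at -0.082 and Ucp1 at -0.56, and with the adipocyte score Ucp1 stood at -0.25. The cause was not tested. Each score was the mean log2 CPM of the tested members of its own lists. A fit with a score thus takes out part of the difference of those members, such as Myh6 and Myl2 with the heart score. The medians of oxidative phosphorylation (0.37 to 0.82), collagens and matrix (-0.48 to -0.27), glycolysis (0.33 to 0.63), mesothelium (0.84 to 1.07) and atrial heart muscle (1.44 to 3.43) kept their sign in the 17 alternatives other than single libraries left out, and in the 10 that leave one out. Among the medians that turned sign were those of white fat (-0.14 to 1.42), brown fat (-0.40 to 1.12), shared heart muscle (-0.25 to 1.65), ventricular (-0.95 to 0.79) and Schwann cell genes (-0.20 to 0.76) over the same 17 alternatives, MHC class II (-0.34 to 0.22) over these too, and interferon response (-0.26 to 0.08) and T and NK cell genes (-0.32 to 0.29) over the libraries left out. Depth limits low genes such as Fgf12, and the libraries under 2000000 counts most.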
